A study of Mus musculus with 6 samples.

Results

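The 8 genes described here encode the initiator caspases of the death receptor and mitochondrial routes to apoptosis and the proteins that switch them on or hold them back: Casp8, Casp9, Apaf1, Xiap, Birc2, Birc3, Cflar and Fas. They were taken by exact gene symbol from a table of 43283 gene identifiers, and each symbol matched 1 row. Expression was measured by RNA sequencing in mouse muscle stem cells, the cells from which skeletal muscle regenerates, and each group had 3 libraries. The cells came from hindlimb muscle of female C57BL/6 mice aged 8 to 12 weeks by the sample labels and were sorted as positive for alpha7 integrin and CD34 and negative for CD45, Sca1, CD31 and CD11b. They were then cultured for 24 h in a medium with fetal bovine serum, which both groups shared, with DMSO alone (Vehicle) or with prostaglandin E2 (PGE2), a lipid mediator of inflammation, at a dose the labels do not give. The labels name no genetic change. RNA came from 5000 to 10000 cells and its cDNA was amplified before library construction. The design text calls the replicates biological and does not say whether they were separate animals, pools of animals or cultures. A p-value therefore rests on the spread between these libraries, for the gene itself and for genes of like level. The design text also gives the age of the mice as a somewhat wider range in months. The comparison asks whether these transcripts differed after exposure to PGE2.

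Caspases are proteases made as inactive precursors. In the death receptor route, Fas at the cell surface gathers adaptors that bring Casp8 molecules together, which activates them, and Cflar (cFLIP), a relative of Casp8 without protease activity, takes part in the same complex and sets whether Casp8 becomes active. In the mitochondrial route, cytochrome c released from mitochondria makes Apaf1 assemble into the apoptosome, which activates Casp9. Xiap binds and inhibits Casp9 and the executioner caspases, whereas Birc2 and Birc3 (cIAP1 and cIAP2) are ubiquitin ligases that act mainly on the kinase complexes below tumour necrosis factor receptors. Caspase activity is also known to take part in the differentiation of myoblasts.

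Of the 8 genes, 7 could be tested for a difference between PGE2 and Vehicle. None of these passed, as 0 of all 12781 tested genes did, and Fas was too low to test. Casp8, Xiap, Apaf1 and Cflar were expressed in all libraries at 27.1 TPM (a length-corrected share of the transcripts in a library) or more, Birc2 and Birc3 lay lower, and Casp9 and Fas were at or near the bottom of the measurable range. Cflar and Casp9 were lower in every PGE2 library than in every Vehicle library, Cflar at 56.6 ± 7.08 against 77.5 ± 1.48 TPM and Casp9 at 0.51 ± 0.19 against 1.77 ± 0.59 TPM (mean ± SD, n = 3 each). Over all tested genes, 4.84% had every PGE2 library below every Vehicle library and 3.18% had every one above. Casp9 was admitted to the test only through the Vehicle group, so its separation was built in. The value of Cflar is tied to a pseudogene, Gm9845, whose sequence is wholly contained in Cflar transcripts and whose values were higher in every PGE2 library. The other genes overlapped between the groups.

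The sequences of Gm9845 and of 3 promoters are shown because the first bears on how Cflar was measured, and the others are the promoters of the 2 genes that separated the groups and of the 1 gene with a full binding site of CREB, a factor that responds to cAMP. Gm9845 (chr3:39358306-39358903 in mm10, minus strand) is annotated as a processed pseudogene of 598 bases. Its first 120 bases, on the minus strand at chr3:39358784-39358903, read as follows, and the same run stands in Cflar transcripts, where the capital letter is the last base of the start codon.
Gm9845 and Cflar: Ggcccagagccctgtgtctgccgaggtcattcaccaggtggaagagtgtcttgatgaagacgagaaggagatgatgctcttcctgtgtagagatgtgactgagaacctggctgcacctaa
The promoters run from 250 bases before to 50 bases after the start site in RefSeq (GRCm38.p6), and capitals mark a full CREB site, TGACGTCA. Birc2 holds the full site, 35 bases before its start, and Cflar and Casp9 have no capitals because the site was not found there.
Birc2, chr9:7837008-7837307, minus strand: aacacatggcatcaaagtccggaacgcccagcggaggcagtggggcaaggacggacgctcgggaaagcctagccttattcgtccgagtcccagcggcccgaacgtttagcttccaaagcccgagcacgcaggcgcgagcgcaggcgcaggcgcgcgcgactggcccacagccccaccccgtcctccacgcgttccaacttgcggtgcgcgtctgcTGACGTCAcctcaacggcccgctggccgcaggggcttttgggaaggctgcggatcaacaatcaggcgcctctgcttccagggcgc
Cflar, chr1:58711241-58711540, plus strand: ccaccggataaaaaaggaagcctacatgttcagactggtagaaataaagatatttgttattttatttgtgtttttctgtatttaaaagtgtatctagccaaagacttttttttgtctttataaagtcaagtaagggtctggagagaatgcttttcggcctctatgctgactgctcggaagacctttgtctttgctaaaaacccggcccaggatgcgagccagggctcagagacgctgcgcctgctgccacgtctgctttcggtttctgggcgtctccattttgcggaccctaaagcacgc
Casp9, chr4:141793362-141793661, plus strand: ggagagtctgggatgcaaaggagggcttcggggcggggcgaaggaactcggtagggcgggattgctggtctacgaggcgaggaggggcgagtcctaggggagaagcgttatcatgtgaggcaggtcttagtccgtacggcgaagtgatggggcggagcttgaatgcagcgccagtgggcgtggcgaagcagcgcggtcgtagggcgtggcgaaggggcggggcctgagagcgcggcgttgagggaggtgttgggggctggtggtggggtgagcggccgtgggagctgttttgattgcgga
All 8 genes had a RefSeq promoter, 11 in all since Xiap has 3 starts and Birc2 has 2. The full site was present on either strand in 1.79% of 32851 promoters of this length, and among the 11 only in the first of Birc2. Its shorter core TGACG, part of the full site and present in 20.8% of all promoters, was also found in the other promoter of Birc2 and in 1 of Xiap. A fixed consensus pattern for NF-kappa B, held by 1.63% of all promoters on either strand, was not found in the 11. Looser forms of this site were not searched, so its absence is not shown. The GC box GGGCGG, held by 35.7%, occurred 4 times in the Casp9 promoter and not in that of Cflar, which had a GC content of 45% against 66% for Casp9 and a median of 52.7% over all promoters. This box also occurred 3 times in the Apaf1 promoter, 2 times in that of Fas, and in some promoters of Xiap and Birc2.

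Myogenic markers other than Cdh15 were present in every library, and some markers of other cell types were not at 0. Cdh15 was listed at 0 in Vehicle 3 and reached at most 5.15 TPM, in PGE2 1. The sort marker Itga7 lay between 2.69 and 13.2 TPM. Of 9 myogenic markers all were tested, and they summed to 872 to 1077 TPM in Vehicle and 732 to 1048 TPM in PGE2. Pax7, which defines muscle stem cells, stood between 33.3 and 56.7 TPM in Vehicle and between 23.9 and 67.0 TPM in PGE2, with Myod1 between 89.5 and 146 TPM over the 6 libraries. The summed level of 10 leukocyte markers was 7.09 to 11.9 TPM in Vehicle and 8.25 to 19.4 TPM in PGE2, with 3 tested and Ptprc, which encodes CD45, at 0.45 to 4.81 TPM. Endothelial markers (7 genes) summed to 4.16 to 7.81 TPM and 6.90 to 19.9 TPM, and fibro-adipogenic markers (6 genes) to 18.7 to 31.5 TPM and 37.5 to 45.9 TPM, in Vehicle and PGE2. Only the fibro-adipogenic sums did not overlap, with 2 of 6 genes tested, and their largest part was Col3a1, at 15.3, 28.1 and 20.2 TPM with DMSO alone and 36.5, 30.4 and 24.9 TPM with PGE2. The groups of Col3a1 itself overlapped. Pdgfra stood at 0.25, 0 and 1.45 TPM with DMSO alone and at 0.82, 0.18 and 0 TPM with PGE2. Lum and Dcn stayed at or below 0.21 and 1.37 TPM. Pericyte and smooth muscle markers (6 genes) summed to 7.01 to 16.1 and 10.3 to 13.4 TPM, with Pdgfrb at 0 throughout, and glial markers (4 genes) to 2.89 to 4.71 and 2.14 to 9.01 TPM. Ly6a, which encodes Sca1 and against which the cells were sorted, stood at 2.22, 3.38 and 7.92 TPM with DMSO alone and at 13.55 TPM in PGE2 2, and was listed at 0 in the other PGE2 libraries. In PGE2 3, Col1a1 was at 14.4 TPM and the endothelial marker Emcn at 15.3 TPM, where no Vehicle library exceeded 0.44 and 0.87 TPM. Endothelial Eng was higher in every PGE2 library (2.55, 6.44 and 2.54 TPM) than in every Vehicle library (1.57, 1.10 and 0.96 TPM), and it was not called. The macrophage receptor gene Csf1r was at most 0.81 TPM in Vehicle and at 0, 2.85 and 4.07 TPM in PGE2. Other markers of the same lists were not all higher with PGE2. Laptm5 of the leukocyte list read 2.93, 5.5 and 0.83 TPM with DMSO alone and 6.45, 0 and 1.32 TPM with PGE2. Endothelial Tek read 1.63, 0.66 and 3.91 TPM with DMSO alone, against 2.3, 0 and 0.37 TPM with PGE2. Leukocyte Ly6g was listed at 0 except in Vehicle 3 (3.94 TPM) and PGE2 3 (4.2 TPM). Endothelial Cdh5 stayed at or below 0.22 TPM and macrophage Adgre1 at or below 0.14 TPM. The number of genes listed above 0 ran from 16446 to 19677 in Vehicle and from 15400 to 17710 in PGE2, and read depth is unknown because TPM values carry none. The part of other cell types and of depth in the results below was not tested.

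**Figure D1:**
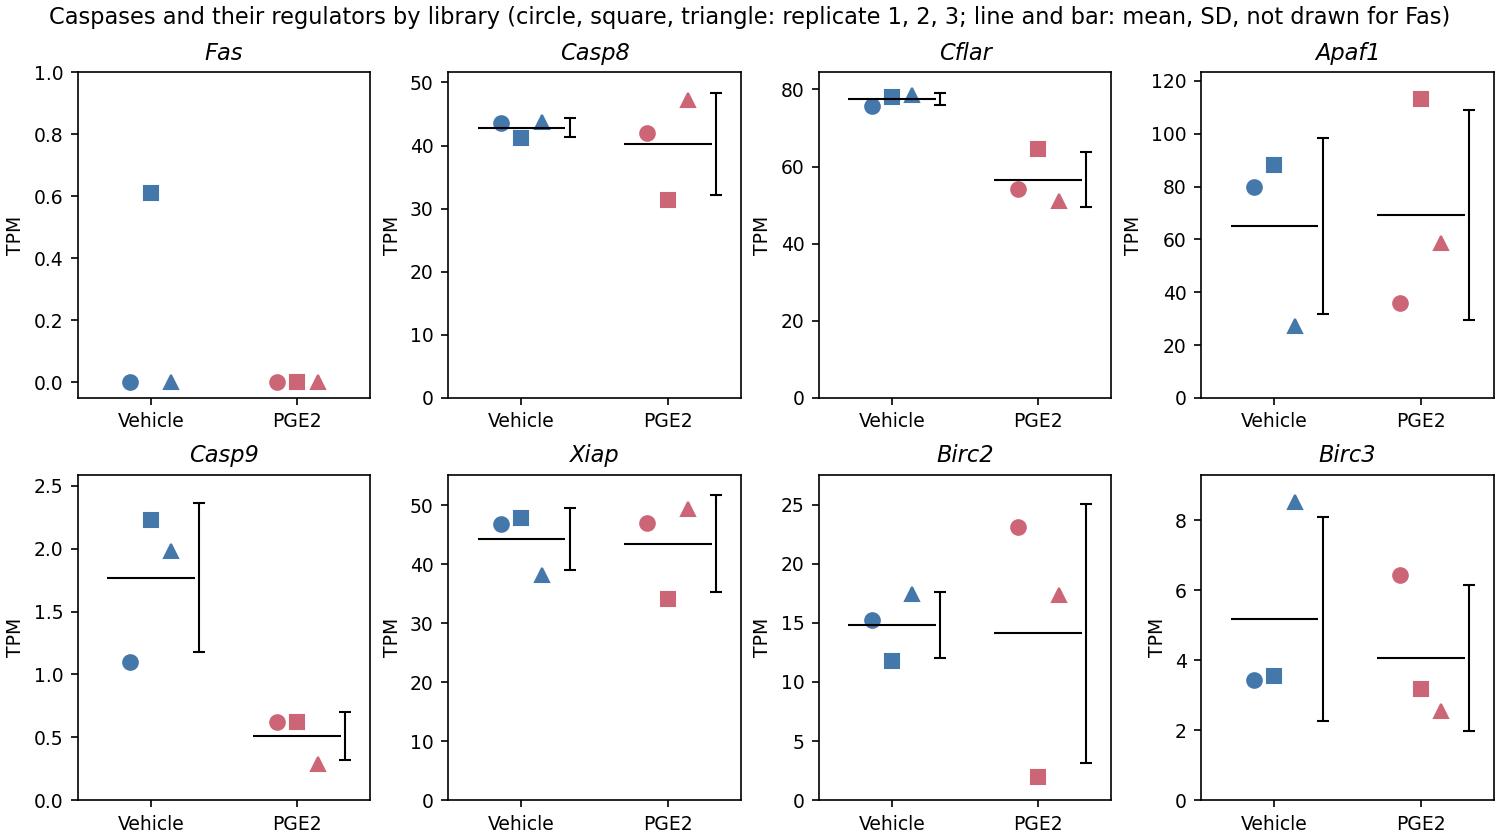
TPM of Fas, Casp8, Cflar, Apaf1, Casp9, Xiap, Birc2 and Birc3 (vertical axes, 1 scale per gene) in the 3 Vehicle and 3 PGE2 libraries, with the mean as a line and the SD as a bar except for Fas. Cflar and Casp9 separate the groups, Birc2 has 1 PGE2 library at 1.93 TPM, and the other genes overlap.

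Fas, the death receptor (chromosome 19, 34290666 to 34327772, plus strand, mm10), was listed at 0 in 5 of 6 libraries. The exception was Vehicle 2 at 0.61 TPM, and the gene was not tested. Its ligand Fasl was listed at 0 in all 6 libraries.

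Casp8 (chromosome 1, 58795374 to 58847503, plus strand, mm10) read 43.6, 41.1 and 43.8 TPM in the DMSO libraries (Vehicle 1, 2 and 3) and 42.0, 31.4 and 47.3 TPM in the PGE2 libraries, in the same order throughout. The Vehicle libraries were close together, and PGE2 2 was the lowest and PGE2 3 the highest of the 6. The log2 change on the log2(TPM + 1) scale, on which all changes below are given, was -0.11 ± 0.31 (± SE), with a 95% confidence interval of -0.80 to 0.59 in limma. The sign turned without PGE2 2, to 0.06. Of the distinct 50-base runs in Casp8 transcripts, 4.37% also stand in Gm20257, a pseudogene on the same chromosome, which read 4.20, 8.92 and 17.3 TPM with DMSO alone and 13.4, 1.37 and 3.27 TPM with PGE2.

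Cflar lies on the same chromosome as its relative Casp8 (58711508 to 58758884, plus strand), with 36489 bases between them. It read 75.8, 78.0 and 78.6 TPM with DMSO alone and 54.2, 64.6 and 51.1 TPM with PGE2. The 3 Vehicle libraries differed by less than 3 TPM, every PGE2 library lay below them, and the within-group SD of Cflar on the log2 scale (0.12) was low, since only 0.812% of genes averaging at least 5 TPM had a smaller one. The log2 change was -0.45 ± 0.28 (± SE, 95% confidence interval -1.08 to 0.17), 1.37-fold lower, with a limma p of 0.139 before and 1.00 after Benjamini-Hochberg adjustment over all 12781 genes tested. Limma moves each SD towards that of genes of like level, so its error is wider than the spread of these 6 values alone. In bulk RNA, fewer cells that express a gene and less of its RNA per cell cannot be told apart.

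Gm9845 shares all of its 549 distinct 50-base runs with Cflar, so a short read from that stretch matches both. It read 51.7, 81.9 and 60.7 TPM with DMSO alone and 133, 87.6 and 94.2 TPM with PGE2, so every PGE2 library lay above every Vehicle library. Its log2 change was 0.69 ± 0.32 (± SE, 95% confidence interval -0.01 to 1.40), with a limma p of 0.0541 and a Benjamini-Hochberg adjusted p of 1.00. The pseudogene is short, so a given TPM of it stands for fewer reads than the same TPM of Cflar, whose 4 coding transcripts are 1771 to 6572 bases long, and 3 transcripts hold the whole of it. Added to Cflar at the weight of its length against the longest coding transcript, a calculation chosen after the values were seen, the sums were 80.5, 85.5 and 84.1 in Vehicle and 66.3, 72.6 and 59.7 in PGE2, still without overlap (log2 change -0.33 ± 0.28, ± SE). Against the shortest they were 93.3, 105.7 and 99.1 in Vehicle and 99.1, 94.2 and 82.9 in PGE2, which overlapped (log2 change -0.11 ± 0.27, ± SE). That transcript, of 1771 bases, does not hold the whole of Gm9845. The shortest coding transcript that does has 2010 bases, and sums weighted by it were not calculated. Summed as plain TPM the log2 change was 0.18 ± 0.27 (± SE), of the opposite sign. Reads of the shared stretch could not be assigned from TPM values, and how they were divided between both genes was not tested. Cflar also shares 67 such runs with Mgea5, whose groups overlapped.

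**Figure D2:**
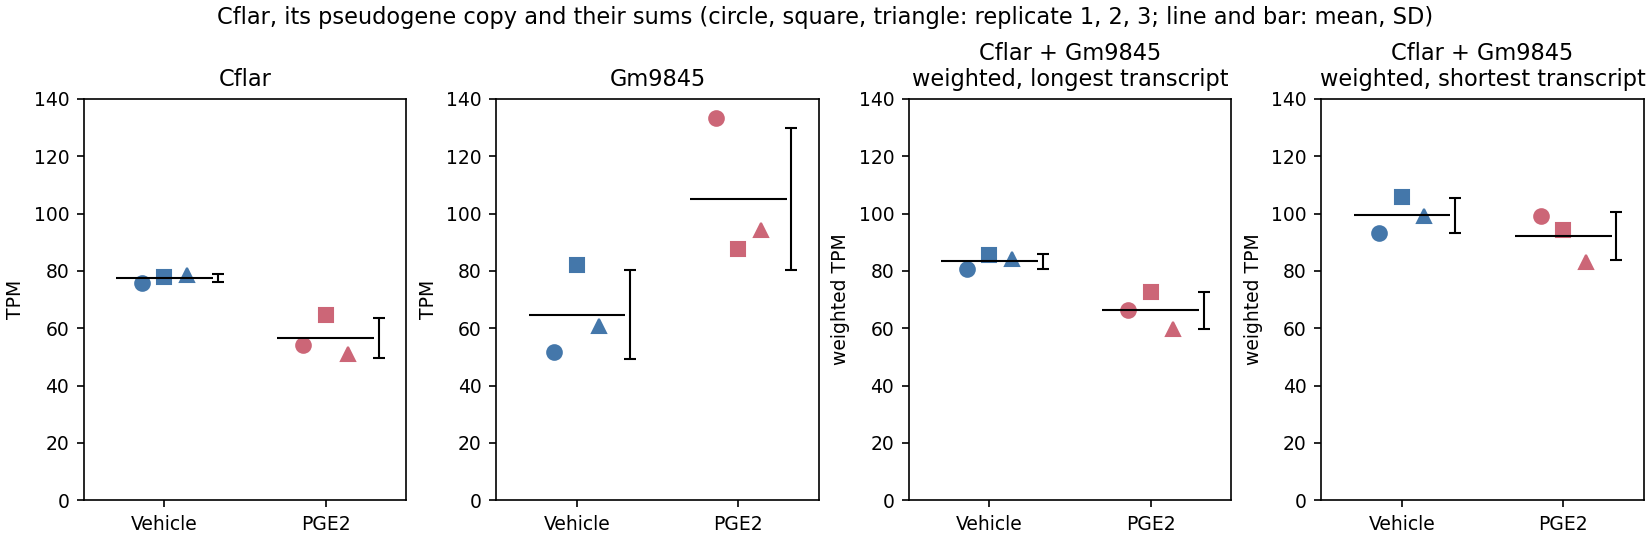
Levels of Cflar and Gm9845 in TPM and of their sums weighted by length (vertical axes) in each Vehicle and PGE2 library, with the mean as a line and the SD as a bar. Cflar is lower and Gm9845 higher in each PGE2 library, and the weighted sums are apart with the longest Cflar transcript and overlap with the shortest.

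Set against its partner in the same library, Cflar stood at 1.74, 1.90 and 1.80 times the TPM of Casp8 in Vehicle and at 1.29, 2.06 and 1.08 times in PGE2. The inhibitor was thus the more abundant of the pair in each library, and the ratio overlapped between the groups since PGE2 2 had the highest of all. These ratios use Cflar as deposited, without Gm9845.

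Apaf1, the scaffold of the apoptosome (chromosome 10, 90989311 to 91082770, minus strand), read 80.0, 88.2 and 27.1 TPM with DMSO alone and 35.9, 113 and 58.6 TPM with PGE2. Its highest and lowest libraries were PGE2 2 and Vehicle 3, and both groups spanned a wide range. The within-group SD was smaller for 82.3% of genes averaging at least 5 TPM. The log2 change of 0.10 ± 0.53 (± SE, 95% confidence interval -1.07 to 1.28) became -0.43 without Vehicle 3 and -0.33 without PGE2 2, and 0.49 without PGE2 1. No direction can be read from it.

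Casp9 (chromosome 4, 141793612 to 141815976, plus strand) read 1.10, 2.23 and 1.98 TPM with DMSO alone and 0.62, 0.62 and 0.29 TPM with PGE2. Every PGE2 library was under 1 TPM and every Vehicle library above it, and the gene entered the test only through the Vehicle group, so that a difference between the groups was built into its being tested. The log2 change was -0.86 ± 0.53 (± SE, 95% confidence interval -2.03 to 0.31), with a limma p of 0.133 before and 1.00 after Benjamini-Hochberg adjustment. It ran from -1.62 with a pseudocount of 0.1 to -0.65 after quantile normalization. Only 3.43% of the tested genes had a lower mean. Casp9 overlaps the pancreatic protease genes Cela2a and Ctrc on the opposite strand, which stayed at or below 0.45 TPM. Whether counting used the strand is not stated. Its partner Apaf1 exceeded it in each library, by 13.7 to 72.7 times in Vehicle and 57.9 to 202 times in PGE2, with overlap between the groups.

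Xiap, which inhibits Casp9 (X chromosome, 42059679 to 42109656, plus strand), read 46.9, 47.8 and 38.2 TPM with DMSO alone and 47.0, 34.1 and 49.3 TPM with PGE2. The groups overlapped, with PGE2 2 below and PGE2 3 above all Vehicle libraries. The log2 change was -0.04 ± 0.31 (± SE), with a 95% confidence interval of -0.74 to 0.66 in limma, and it turned positive after median-ratio scaling and quantile normalization and without Vehicle 1, Vehicle 2 or PGE2 2. Xiap and Casp8 had a similar level and the same order over the PGE2 libraries, but not over the Vehicle libraries. Vehicle 2 was the highest Vehicle library for Xiap and the lowest for Casp8. Both genes had their lowest value of all in PGE2 2 and their highest in PGE2 3. Their within-group SD was smaller for only 7.26% and 5.21% of genes averaging at least 5 TPM.

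Birc2 and Birc3 lie side by side on the minus strand of chromosome 9, at 7818227 to 7837064 and 7848699 to 7873186, with 11634 bases between them, and share 65 distinct 50-base runs. Birc2 read 15.3, 11.8 and 17.4 TPM with DMSO alone and 23.1, 1.93 and 17.4 TPM with PGE2. PGE2 2 stood alone, far below the lowest other library. With it the log2 change was -0.52 ± 0.72 (± SE, 95% confidence interval -2.13 to 1.09), and without it the change was 0.43 ± 0.42 (± SE). Without PGE2 1, the highest library, it was -1.09 ± 0.73 (± SE). Birc3 read 3.44, 3.54 and 8.53 TPM with DMSO alone and 6.43, 3.18 and 2.54 TPM with PGE2, with Vehicle 3 the highest and a log2 change of -0.27 ± 0.58 (± SE, 95% confidence interval -1.55 to 1.01) that was 0.09 without Vehicle 3. Birc2 exceeded Birc3 in 5 of 6 libraries, the exception being PGE2 2.

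Ranked by mean TPM over the 6 libraries, which is a level per length, the order was Apaf1 (67.2), Cflar (67.1), Xiap (43.9), Casp8 (41.5), Birc2 (14.5), Birc3 (4.61), Casp9 (1.14) and Fas (0.10). The first place turned between the group means, since Cflar was above Apaf1 in the Vehicle mean (77.5 against 65.1 TPM) and below it in the PGE2 mean (56.6 against 69.2 TPM). By library Apaf1 was the higher in 4 of 6, all but Vehicle 3 (27.1 against 78.6 TPM) and PGE2 1 (35.9 against 54.2 TPM). No difference in order between the groups is read from the means. Neighbours with ranges that did not touch were Cflar and Xiap, Casp8 and Birc2, and Birc3 and Casp9. Apaf1 and Cflar, Xiap and Casp8, Birc2 and Birc3, and Casp9 and Fas overlapped in range.

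Over all 12781 tested genes, 0 (0%) passed limma's threshold after Benjamini-Hochberg adjustment (0.05), and 464 (3.63%) had an unadjusted p under 0.05. Of the 8 genes described, 7 were tested, 0 were called, and 0 had an unadjusted limma p under 0.05. Every PGE2 library lay below every Vehicle library for 2 of the 7, Cflar and Casp9, against 4.84% of all tested genes, and every PGE2 library lay above for 0 of the 7, against 3.18%. For Casp9 this separation was built in, since it passed the filter only through Vehicle, so nothing is read from this count. The fitted value was lower in PGE2 for 6 of the 7, against 56.1% of all tested genes, with a median log2 change of -0.27 beside -0.07 over all tested genes. Those 6 include Casp9, which the filter admitted through the Vehicle group, and Xiap, Casp8, Birc2 and Birc3, whose sign turned under at least 1 alternative, so no shared direction is read from these counts.

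**Figure D3:**
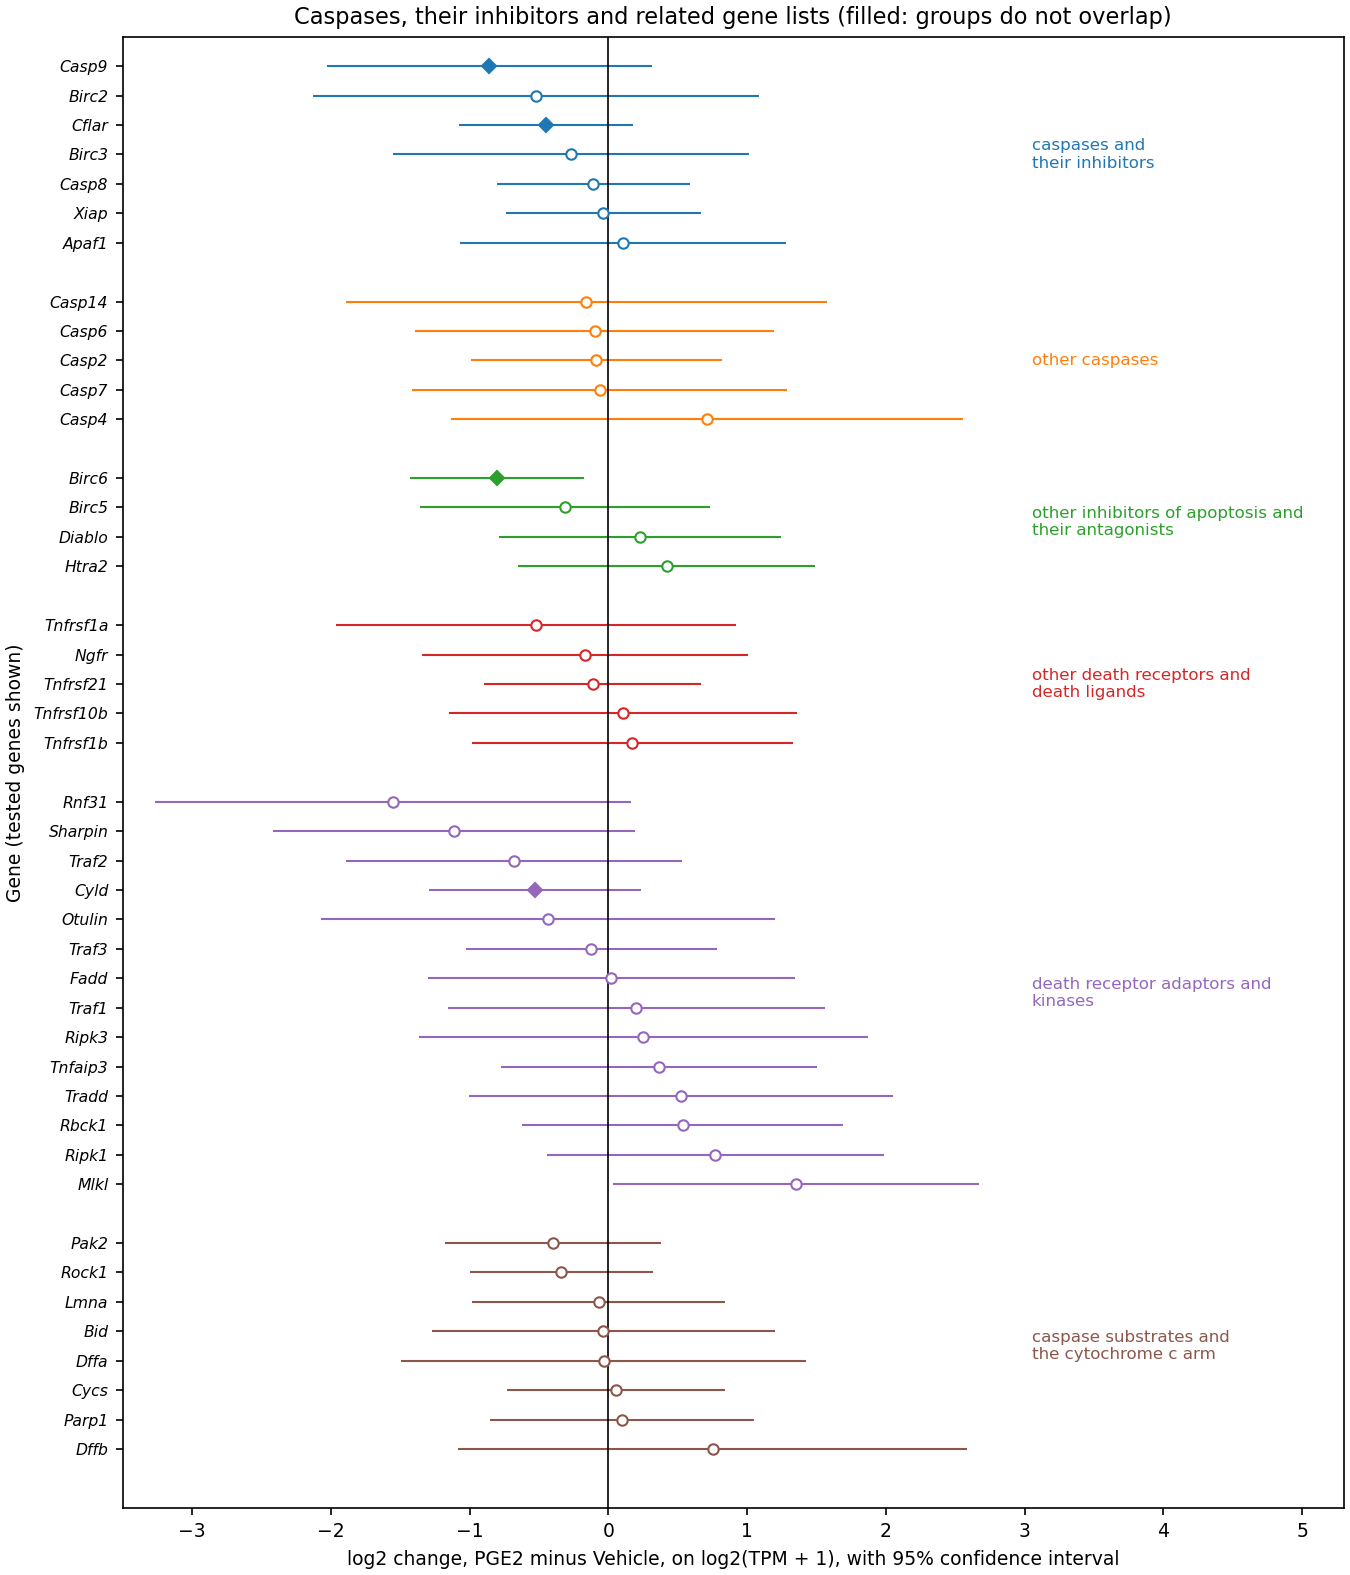
Difference between PGE2 and Vehicle in log2(TPM + 1), PGE2 minus Vehicle (horizontal axis), with its 95% confidence interval for the tested genes shown of each list (vertical axis). Filled symbols mark genes whose groups do not overlap: Casp9, Cflar, Birc6 and Cyld, all to the left of 0.

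The other genes of these routes were read from 5 further lists. No gene of them was called by limma after adjustment, as for 0 of all 12781 tested genes. The counts of higher and lower genes below stand beside 56.1% of all tested genes lower in PGE2, and nothing is read from them. Among the other caspases, Casp2, an initiator that also responds to DNA damage, read between 10.7 and 19.7 TPM, and Casp4, an inflammatory caspase, between 0 and 7.89 TPM, both with overlap. Casp1 was listed at 0 in all libraries but PGE2 2 (2.49 TPM).

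Among other inhibitors of apoptosis and their antagonists, 4 of 11 genes in the table were tested, 2 higher and 2 lower (median log2 change -0.04). Birc6, a very large ubiquitin-conjugating protein of the same family as Xiap, read 522, 489.6 and 383 TPM with DMSO alone and 242, 300.6 and 253 TPM with PGE2. It was the most abundant family member in every library, and every PGE2 library lay below every Vehicle library. Its log2 change was -0.80 ± 0.28 (± SE, 95% confidence interval -1.43 to -0.18), with a limma p of 0.0171 before and 1.00 after Benjamini-Hochberg adjustment, and so it did not pass. Birc5 (survivin), which is made in dividing cells, read 109.9, 72.3 and 36.5 TPM with DMSO alone and 91.6, 37.05 and 44.0 TPM with PGE2. Htra2, a mitochondrial protease that antagonises these inhibitors, read between 9.12 and 26.7 TPM with overlap. The 5 other genes of the Naip and Birc7 group stayed at or below 0.78 TPM and were not tested.

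Of the 10 other death receptors and ligands, 5 were tested, 2 higher and 3 lower (median log2 change -0.11). The tumour necrosis factor receptors Tnfrsf1a and Tnfrsf1b read between 0.58 and 6.18 TPM and between 2.17 and 4.41 TPM, and Tnfrsf21 between 19.0 and 27.5 TPM, each with overlap. The ligands Tnf and Tnfsf10 stayed at or below 0.85 and 0.42 TPM, and Lta was listed at 0 throughout.

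All 14 adaptors and kinases below death receptors were tested, 8 higher and 6 lower (median log2 change 0.11). Mlkl, the effector of necroptosis, a form of cell death that Casp8 restrains, read 10.6, 5.39 and 7.38 TPM with DMSO alone and 21.2, 47.4 and 8.68 TPM with PGE2. PGE2 3 lay within the range of Vehicle, and the log2 change was 1.35 ± 0.59 (± SE), with a limma p of 0.0452 before and 1.00 after Benjamini-Hochberg adjustment. It was 0.78 without PGE2 2. Rnf31, Sharpin and Rbck1 are the subunits of the complex that builds linear ubiquitin chains, and the groups overlapped for each. Rnf31 stood at 2.24, 5.98 and 21.2 TPM with DMSO alone and 4.09, 0.73 and 1.25 TPM with PGE2. Sharpin stood at 4.37, 13.3 and 6.36 TPM with DMSO alone and 2.86, 4.65 and 1.56 TPM with PGE2. Rbck1 lay the other way, at 4.38, 2.89 and 5.57 TPM with DMSO alone and 6.99, 4.35 and 8.76 TPM with PGE2. Otulin and Cyld, deubiquitinases that remove such chains, and Rbck1 were picked for mention with their values known. Otulin overlapped, at 3.63, 5.39 and 5.81 TPM with DMSO alone and 12.1, 2.50 and 0.77 TPM with PGE2. Cyld read 28.9, 24.0 and 24.1 TPM with DMSO alone and 15.8, 18.3 and 18.2 TPM with PGE2, with no overlap. Its log2 change was -0.53 ± 0.34 (± SE), with a limma p of 0.152 before and 1.00 after Benjamini-Hochberg adjustment.

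Of the 9 caspase substrates and genes of the cytochrome c arm in the table, 8 were tested, 3 higher and 5 lower (median log2 change -0.04). The kinases Rock1 and Pak2, which caspases cleave, read between 87.6 and 165 TPM and between 30.2 and 62.8 TPM. Dffb, the caspase-activated DNase, read between 0 and 5.36 TPM. None of these separated the groups.

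The pattern most like the mean of the 7 tested genes, each centred on its own mean, belonged to Pgm2l1, Haus6 and Actr2 among 7339 protein-coding genes outside the lists averaging at least 5 TPM. The root mean square distance over the 6 libraries was 0.06 for Pgm2l1 and Haus6 and 0.07 for Actr2 on the log2 scale, beside a median of 0.46. These genes were picked as the nearest, so distances below the median follow from the choice. Each was lower in every PGE2 library than in every Vehicle library, while of the tested genes only Cflar and Casp9 were. The mean pattern was lowest in PGE2 2 (-0.38), where Birc2 (-2.16) contributed most, and highest in Vehicle 2 (0.19). Single genes differed from it: in PGE2 2 Apaf1 stood at 0.91, its own maximum.

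**Figure D4:**
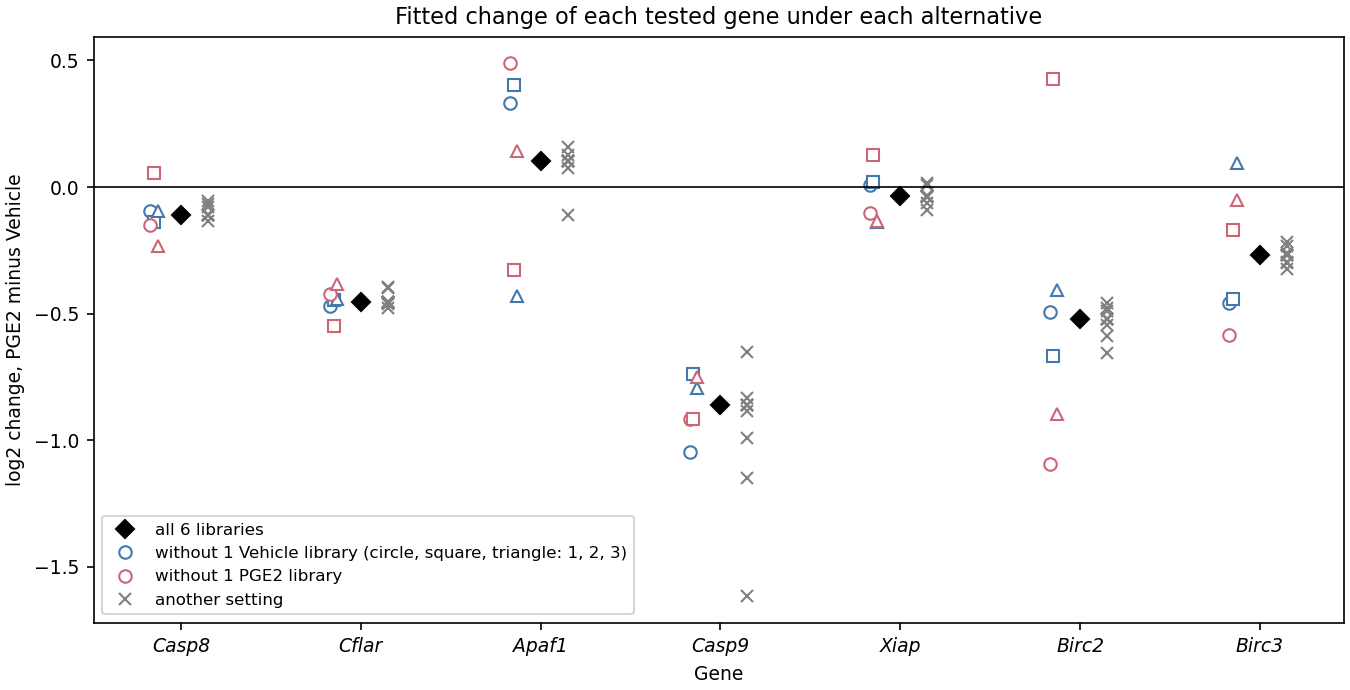
Log2 change of PGE2 minus Vehicle (vertical axis) of the 7 tested genes (horizontal axis) with all 6 libraries, without each library in turn and under other settings. Cflar (-0.55 to -0.38) and Casp9 (-1.62 to -0.65) are below 0 at every point plotted. Only the other scalings could have changed this, since the groups of both genes do not overlap. Apaf1, Casp8, Xiap, Birc2 and Birc3 cross 0. The sums of Cflar with Gm9845, of which the plain one is above 0 (0.18), are not plotted.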

How the data were processed

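The authors deposited 1 table of TPM values holding 6 libraries as columns. The unit is not named in it and was inferred from the values, which have decimals and sum to nearly the same total in each library. STAR, RSEM and mm10 are listed in the submitters' processing notes, while tool versions and the annotation were not given in the sources used here. TPM keeps no depth, so counting intervals are not given. Genes reaching 1 TPM in 3 or more of the 6 libraries were compared on log2(TPM + 1) by limma 3.58.1 under R 4.3.3, its variance prior following mean level. Tests were two-sided, and p-values were adjusted over every tested gene (Benjamini-Hochberg, 0.05). The model was tested on simulated data, with added changes larger than those of the genes described. How often it finds changes of their size was not tested. Of 43283 identifiers, 42782 were found in GENCODE M21, which gave positions and transcripts, and runs of 50 bases were compared between transcripts.

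The genes and lists were chosen with earlier results of these data known. Named are the 8 genes, up to 3 tested genes with the smallest p from each of 5 further lists (60 of 62 entries of the 6 lists matched a symbol), Pax7, Myod1 and Ptprc, and the 3 genes nearest in pattern. One gene of the other caspases, and that list's counts, are not reported here. Gm9845 and the other overlapping or sequence-sharing genes, Cyld, Rbck1, Otulin, the other single markers and low or absent genes (Fasl, Casp1, Tnf, Tnfsf10, Lta) were named after their values were seen. Alternatives covered the pseudocount, filter, scaling, variance prior, library weights, replicate block and each library left out. Python 3.11.15 made tables and figures.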

Additional observations from a re-analysis of the deposited data

How the results depend on the processing

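Under the 17 alternatives none of the 7 tested genes passed limma's test (Benjamini-Hochberg adjusted p from 0.674 to 1.00), and Cflar, Casp9, Birc6, Cyld, Mlkl and Gm9845 kept their sign where tested. Except for Mlkl, their groups do not overlap, so leaving out a library, weighting libraries or another pseudocount could not turn it. The variance prior, filter and replicate block leave the fitted change as it is. For these genes only the scalings could therefore have turned the sign. Casp9 was also admitted to the test only through the Vehicle group. Leaving out 1 library at a time, the log2 change ranged from -0.23 to 0.056 for Casp8, -0.43 to 0.49 for Apaf1, -0.14 to 0.13 for Xiap, -1.09 to 0.43 for Birc2 and -0.58 to 0.094 for Birc3, so the sign of each turned. It turned without PGE2 2 for Casp8, Apaf1, Xiap and Birc2, without Vehicle 3 for Apaf1 and Birc3, and without Vehicle 1 or 2 for Xiap. Xiap was also 0.018 with median-ratio scaling and 0.0080 with quantile normalization, and Apaf1 -0.11 with library weights. Cflar summed with Gm9845 as plain TPM turned to 0.18. The median log2 change of the tested genes was -0.11 with a filter of a mean of 5 TPM, which drops Casp9 and Birc3, and ran from -0.46 to -0.17 when a library was left out. It was -0.11 with both genes summed, either as plain TPM or weighted by the shortest transcript. The number of genes called over the whole table, 0 with all libraries, was 1 with a robust variance prior, 4 without a mean trend and 0 to 2 when a library was left out (2 without PGE2 3), and the cause was not tested. With the replicate number as a block, 0 genes were called and 6 of the tested genes stayed lower; same-numbered libraries did not deviate together (r = -0.06, -0.04 and 0.07 across genes for numbers 1 to 3), so the numbers were not taken as pairs, and not every library correlated best with its own number. The 95% confidence interval of the log2 change of Cflar was -1.08 to 0.17 as deposited, -0.43 to 0.79 summed with Gm9845 as plain TPM, and -0.71 to 0.49 and -0.95 to 0.28 weighted by the shortest and the longest transcript.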
